A study of Mus musculus with 12 samples.

Results

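The genes described here are 10 genes of activin and TGF-β signalling, measured by RNA sequencing in splenic CD4+ T cells of the mouse: the ligand genes Inhbb, Inhba, Tgfb1 and Tgfb3, the receptor genes Tgfbr1, Tgfbr2 and Acvr2a, the signal transducer gene Smad3 and the inhibitor genes Smad7 and Ski. They were chosen by name from the 38924 gene IDs of the count files, and all 10 were among the 13811 genes that passed the filter on low counts, Inhbb only through the WT libraries with CMA. Inhbb and Tgfb3 were picked for their response to CMA, so their values are given as a description without a test, also between genotypes, where the same libraries enter, while the other 8 genes were tested in every comparison. WT mice and mice labelled STING KO, both on the C57BL/6 background, were the source of the spleens. The STING KO mice carry the STINGgt/gt (Goldenticket) allele, a germline missense mutation that is present in every cell type, with no Cre or transgene. In all 4 groups the cells had been sorted as naive CD4+ T cells, expanded with anti-CD3 and anti-CD28 antibodies and kept without them before treatment. For 16 h they then received the solvent DMSO or CMA (10-carboxymethyl-9-acridanone), a small molecule that activates mouse STING, with 3 libraries for each combination of genotype and treatment. The comparisons ask how these genes respond to CMA and whether that response differs between the genotypes.

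Activins are dimers of inhibin β subunits, with Inhba encoding βA and Inhbb encoding βB, and they signal through a type II receptor such as ACVR2A and a type I receptor such as ACVR1B. TGF-β ligands are secreted in a latent form and, once released, signal through TGFBR2 and TGFBR1. Both branches phosphorylate SMAD2 and SMAD3, which enter the nucleus with SMAD4, while SMAD7 blocks the receptors and SKI represses SMAD target genes. In T cells TGF-β is known for restraining proliferation and for its part in the differentiation of regulatory and Th17 cells.

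Between 27414450 and 43784910 reads were counted on genes per library. Levels are given as CPM, the count scaled to a common TMM-adjusted library size. All 10 T-cell markers were detected in every group, with a summed level of 3157 to 3616 CPM, and Cd4 averaged between 435 and 540 CPM. Tmem173, which encodes STING, was transcribed in both genotypes, at 183 to 190 CPM in WT and 168 to 181 CPM in STING KO T cells with DMSO, and since the allele is a missense mutation, its level does not check the genotype labels. The share of entries that fell outside genes was 4.86% to 5.47% in WT T cells with DMSO and 6.79% to 7.16% with CMA, against 5.98% to 6.54% in all STING KO libraries. For reads with more than 1 alignment the same shares were 29.6% to 30.3%, 27.8% to 27.9% and 28.1% to 29.0%. Their part in the differences between groups was not tested. RNA of other cell types was present and differed between groups. The summed level of 6 B-cell markers was 196 to 204 CPM in WT T cells with DMSO and 282 to 302 CPM with CMA, against 94.3 to 98.5 CPM in STING KO T cells. For 7 myeloid markers these values were 48.7 to 52.7 CPM, 60.1 to 63.3 CPM and 34.5 to 38.9 CPM. Most of the myeloid sum was Cst3, which averaged 38.6 CPM in WT T cells with DMSO and 55.7 CPM with CMA. Lyz2 (3.25 to 1.16 CPM), Itgam (3.31 to 1.02 CPM) and Fcer1g (4.23 to 2.54 CPM) went the other way. No pair of replicates agreed within sampling noise: the chi-square statistic over genes, divided by its degrees of freedom, ran from 2.63 to 29.9 and was highest for WT DMSO replicates 2 and 3.

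Both activin β subunit genes responded in WT T cells, in opposite directions. Inhbb is on chromosome 1 (119415465 to 119422248, minus strand, GRCm38) and Inhba on chromosome 13 (16011851 to 16027211, plus strand). The 250 bases upstream of the annotated start of each gene are shown because these 2 related subunit genes moved apart. They are taken from RefSeq (GRCm38.p6), for Inhbb from chr1:119422249-119422498 on the minus strand and for Inhba from chr13:16011601-16011850 on the plus strand, with the motif match in capitals.
Inhbb: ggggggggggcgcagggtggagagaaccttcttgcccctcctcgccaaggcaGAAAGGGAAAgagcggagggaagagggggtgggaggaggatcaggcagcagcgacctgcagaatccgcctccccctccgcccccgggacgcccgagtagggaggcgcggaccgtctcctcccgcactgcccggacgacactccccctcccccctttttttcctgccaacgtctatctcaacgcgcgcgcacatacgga
Inhba: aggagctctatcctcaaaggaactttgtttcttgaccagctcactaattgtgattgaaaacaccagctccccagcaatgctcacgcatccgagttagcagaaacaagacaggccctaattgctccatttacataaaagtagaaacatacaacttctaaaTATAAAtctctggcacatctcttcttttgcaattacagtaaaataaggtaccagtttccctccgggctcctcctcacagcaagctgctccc
The capitals mark an ISRE-like match (GAAA, any 2 bases, GAAA) for Inhbb, which starts 198 bases upstream, and a TATA box match (TATAAA) for Inhba, which starts 91 bases upstream. The Inhbb window has a GC content of 68% and the Inhba window of 43.2%. Of 32841 windows of the same length upstream of all starts in the same reference table, 2.98% held the ISRE-like letters on either strand and 12.4% the TATA letters. The SMAD box (CAGAC, in 42.2% of windows), the AP-1 site (TGANTCA, in 6.75%) and the kappaB site (in 3.90%) were searched on both strands as well, and their letters were not in either window. A match is a description of the sequence only.

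In WT T cells with DMSO, Inhbb had 3, 2 and 4 reads, corresponding to 0.109, 0.0671 and 0.0975 CPM. With CMA it had 1194, 1154 and 1119 reads, or 33.3, 35.6 and 35.3 CPM. All 3 WT libraries with CMA were thus far above every other library, and the remaining 9 libraries held at most 4 reads each. The summed, depth-adjusted counts of WT T cells with CMA were 379 times those with DMSO (exact 95% interval 199 to 829, which covers counting error only). For STING KO T cells, 0, 1 and 0 reads were counted with DMSO and 1, 2 and 0 with CMA, so no fold change is given. With CMA, the WT count was 1390 times that in STING KO T cells (475 to 6744), on 3467 against 3 reads. This ratio rests on single reads: it was 2637 without STING KO CMA replicate 2, which leaves 1 read, and 945 without replicate 3, which had none. The plot of the ligand genes by library shows this gene beside the 3 others.

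**Figure D1:**
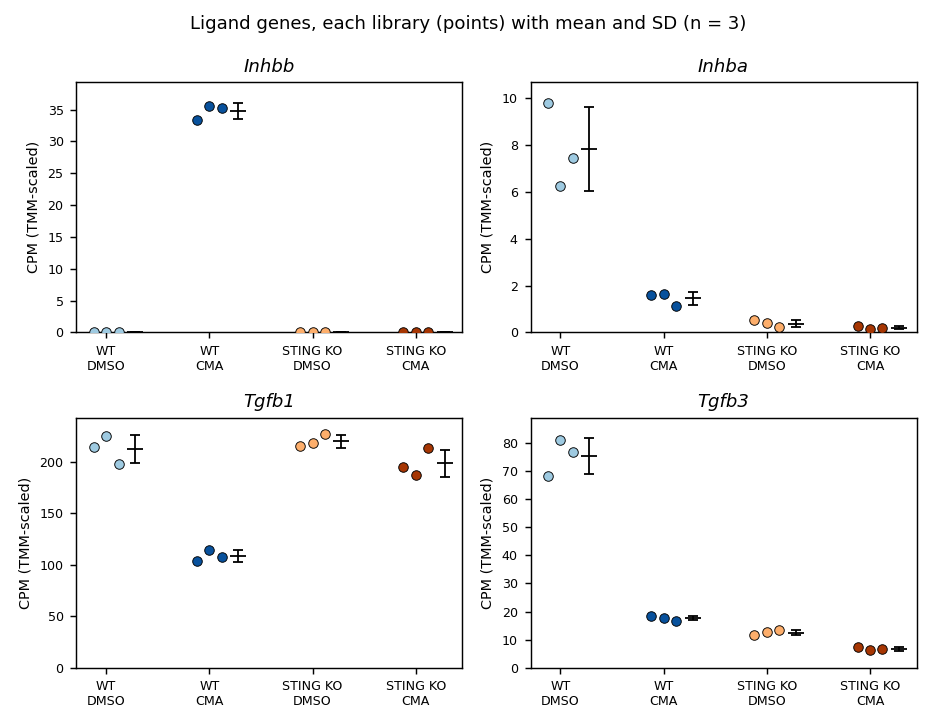
CPM of the 4 ligand genes in each library (points), with the mean and SD of 3 libraries (bars), for WT and STING KO T cells with DMSO or CMA. Inhbb is near 0 in all libraries except the 3 of WT T cells with CMA (33.3 to 35.6 CPM), whereas Inhba, Tgfb1 and Tgfb3 are lower with CMA in the WT panels.

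Inhba moved the other way. In WT T cells with DMSO its levels were 9.80, 6.24 and 7.46 CPM, and with CMA 1.59, 1.64 and 1.13 CPM, without overlap. This was a fall of 5.34-fold (log2 fold change -2.42, SE 0.19, edgeR adjusted p = 7.26e-09). The levels in STING KO T cells were already low, at 0.515, 0.383 and 0.218 CPM with DMSO and 0.266, 0.158 and 0.182 CPM with CMA, on 41 and 24 reads in all. The 2 STING KO groups overlapped, and the change did not pass the test (log2 fold change -0.92, 95% interval -1.89 to 0.05, edgeR adjusted p = 0.42). The CMA effect differed between the genotypes by -1.50 on the log2 scale (SE 0.54, edgeR adjusted p = 0.0245). This call was lost without STING KO DMSO replicate 3 (-1.24, adjusted p = 0.0603) and without STING KO CMA replicate 1 (-1.25, adjusted p = 0.119).

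Inha, which encodes the α subunit that pairs with a β subunit to form inhibin, had between 1 and 8 reads per library and was not among the genes tested. Follistatin (Fst), an extracellular trap of activins, had at most 1 read in any library. Fstl3, a follistatin-like trap, fell in WT T cells from 2.53 ± 0.48 to 0.497 ± 0.164 CPM (SD, n = 3), with a log2 fold change of -2.31 (edgeR adjusted p = 2.29e-07). Its log2 fold change in STING KO T cells was -0.02 (edgeR adjusted p = 0.984).

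Tgfb1 (chromosome 7, 25687002 to 25705077, plus strand), the main TGF-β isoform of lymphocytes, fell in WT T cells. Its levels were 215, 225 and 199 CPM with DMSO and 103, 114 and 108 CPM with CMA. The lowest library with DMSO was thus well above the highest with CMA, and the level fell 1.96-fold (log2 fold change -0.97, SE 0.06, edgeR adjusted p = 2.39e-10). The STING KO levels were 215, 218 and 227 CPM with DMSO and 195, 188 and 213 CPM with CMA. The 3 libraries with CMA were below the 3 with DMSO, but the difference did not pass the test (log2 fold change -0.15, 95% interval -0.27 to -0.03, edgeR adjusted p = 0.261). The difference of the CMA effects, WT minus STING KO, was -0.82 on the log2 scale (SE 0.08, edgeR adjusted p = 2.51e-07).

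Tgfb3 (chromosome 12, 86056744 to 86079041, minus strand), a second TGF-β isoform, had 68.3, 80.8 and 76.8 CPM in WT T cells with DMSO and 18.2, 17.8 and 16.8 CPM with CMA. The STING KO libraries had 11.5, 12.7 and 13.4 CPM with DMSO and 7.53, 6.17 and 6.73 CPM with CMA. The libraries with CMA were below those with DMSO in both genotypes, and even the lowest WT library with CMA was above all STING KO libraries. The log2 fold change with CMA was -2.10 (SE 0.07) in WT and -0.88 (SE 0.09) in STING KO T cells, a description of the pattern for which the gene was picked. Exons of Tgfb3 share 163 and 257 bases with 2 genes annotated on the opposite strand (Gm37804 and Gm48008), and whether the authors' counting used the strand is not given in the sources used here.

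Tgfbr2, which encodes the type II receptor that binds TGF-β, was at 118, 114 and 124 CPM in WT T cells with DMSO and at 137, 144 and 156 CPM with CMA. The 2 groups did not overlap, and the rise was 1.23-fold (log2 fold change 0.30, SE 0.05, edgeR adjusted p = 6.4e-05). The STING KO levels were 87.4, 89.8 and 94.1 CPM with DMSO and 95.2, 92.2 and 93.7 CPM with CMA, with overlap (log2 fold change 0.05, edgeR adjusted p = 0.733). The CMA effect differed between the genotypes by 0.24 (SE 0.07, edgeR adjusted p = 0.00791).

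Tgfbr1, which encodes the type I receptor kinase, rose as well, from 24.3, 20.9 and 27.7 CPM to 30.2, 29.4 and 30.9 CPM in WT T cells (log2 fold change 0.30, SE 0.08, edgeR adjusted p = 0.00358). The replicates with DMSO were spread more widely than those with CMA. The gene was higher in STING KO T cells under both treatments, with 36.0, 38.7 and 37.6 CPM with DMSO and 35.5, 41.4 and 38.1 CPM with CMA, and the treatments overlapped (log2 fold change 0.04, edgeR adjusted p = 0.885). The difference of the CMA effects was 0.27 (95% interval 0.03 to 0.51) and did not pass the test (edgeR adjusted p = 0.0525). Without WT DMSO replicate 2 it was 0.16 (adjusted p = 0.124), where the log2 fold change in WT T cells was 0.20, and without WT DMSO replicate 3 it was 0.39 (adjusted p = 0.0014). Over the 22 alternatives the adjusted p ran from 0.0014 to 0.124 and the difference passed in 10, among them DESeq2 (adjusted p = 0.0343), limma-voom (adjusted p = 0.049), the replicate block (adjusted p = 0.00928) and the block by library name (adjusted p = 0.0159).

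Acvr2a, which encodes a type II receptor for activins, was low in all groups. Its levels in WT T cells were 1.89, 1.81 and 2.41 CPM with DMSO and 2.57, 3.05 and 2.14 CPM with CMA. These groups overlapped, and the change did not pass the test (log2 fold change 0.32, 95% interval -0.00 to 0.65, edgeR adjusted p = 0.07). Without WT DMSO replicate 3 it was 0.49 (adjusted p = 0.0142) and without WT CMA replicate 3 it was 0.44 (adjusted p = 0.0217), while over all 23 alternatives it ran from 0.19 to 0.49 and passed in 4 (adjusted p from 0.0142 to 0.323). The STING KO values ranged from 2.46 to 2.57 CPM with DMSO and from 2.05 to 2.40 CPM with CMA (log2 fold change -0.15, edgeR adjusted p = 0.717). The CMA effects differed by 0.47 (95% interval 0.03 to 0.92), which did not pass the test (edgeR adjusted p = 0.0635) except in 4 of 22 alternatives (adjusted p from 0.0147 to 0.187). The exons of Acvr2a share 446 bases with Orc4 on the opposite strand. Of its partners, Acvr2b, the other activin type II receptor gene, rose in WT T cells from 0.696 ± 0.167 to 1.63 ± 0.02 CPM (SD, n = 3; log2 fold change 1.27, edgeR adjusted p = 1.5e-05). The type I receptor gene Acvr1b fell from 33.6 ± 1.6 to 30.3 ± 1.0 CPM (log2 fold change -0.15, edgeR adjusted p = 0.0296). Its log2 fold change in STING KO T cells was -0.12 (edgeR adjusted p = 0.371). The difference of its CMA effects, -0.03, did not pass the test (edgeR adjusted p = 0.799). Acvr1c, at 0.834 ± 0.328 and 0.679 ± 0.242 CPM in WT T cells, did not pass the test (edgeR adjusted p = 0.399).

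**Figure D2:**
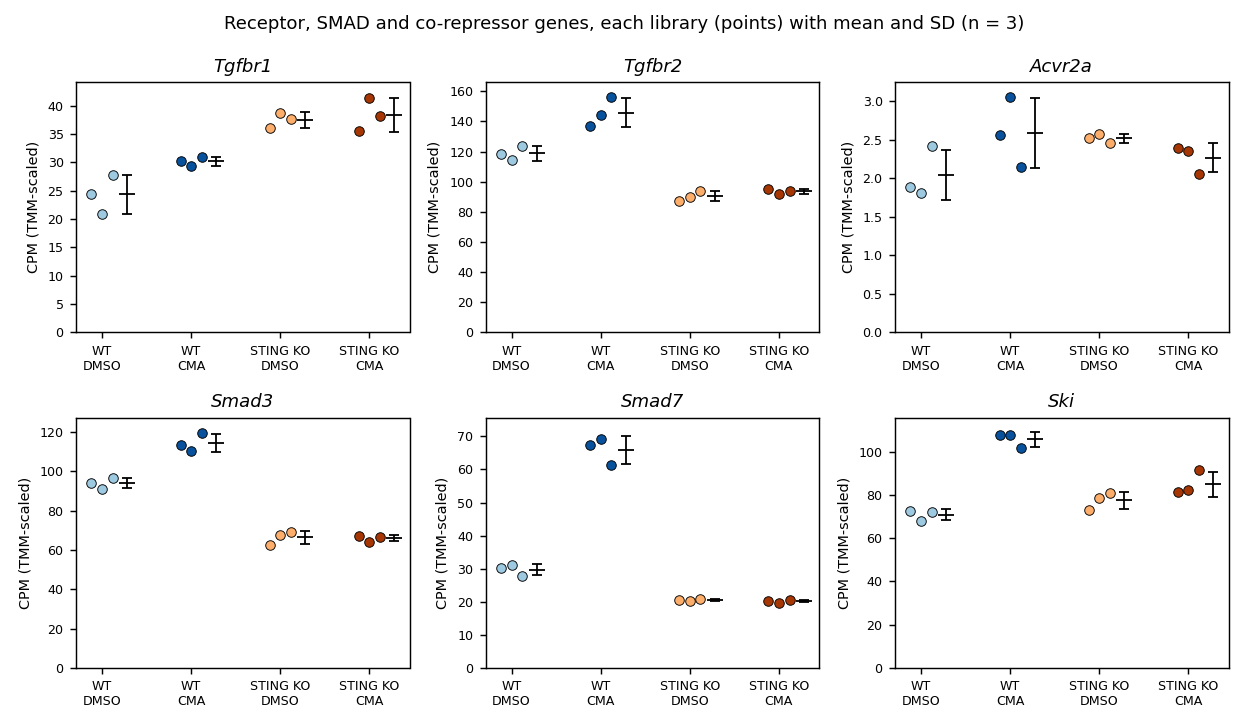
CPM of the receptor genes Tgfbr1, Tgfbr2 and Acvr2a, of Smad3 and of the inhibitor genes Smad7 and Ski in each library (points), with the mean and SD of 3 libraries (bars). Smad7 and Ski stand highest in the 3 libraries of WT T cells with CMA (61.3 to 69.4 and 102 to 108 CPM). The 2 STING KO groups overlap for Tgfbr1, Tgfbr2, Smad3 and Smad7 but not for Acvr2a and Ski.

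Smad3, which encodes a receptor-activated SMAD, rose from 94.1, 91.2 and 96.5 CPM to 113, 110.5 and 120 CPM in WT T cells. All libraries with CMA were above those with DMSO, at a log2 fold change of 0.28 (SE 0.05, edgeR adjusted p = 4.39e-05). In STING KO T cells the 2 groups overlapped between 62.6 and 69.0 CPM (log2 fold change -0.01, edgeR adjusted p = 0.954), and the CMA effects differed by 0.29 (SE 0.07, edgeR adjusted p = 0.00123). Smad2, which encodes the second SMAD activated by these receptors, was at 52.4 ± 3.7 and 52.7 ± 0.3 CPM in WT T cells with DMSO and CMA, and its log2 fold change of 0.00 (SE 0.05) did not pass the test (edgeR adjusted p = 0.953). Smad4, the common partner of both, rose from 73.5 ± 5.9 to 101 ± 2 CPM (log2 fold change 0.45, edgeR adjusted p = 1.56e-06).

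The inhibitor genes Smad7 and Ski both rose in WT T cells. Smad7, which encodes an inhibitory SMAD and is itself induced by TGF-β, had 30.0, 31.1 and 27.8 CPM with DMSO and 67.4, 69.4 and 61.3 CPM with CMA. The increase was 2.23-fold, with no overlap between the groups (log2 fold change 1.16, SE 0.06, edgeR adjusted p = 1.35e-11). In STING KO T cells all 6 libraries lay between 19.7 and 20.7 CPM, with a log2 fold change of -0.02 (95% interval -0.15 to 0.11, edgeR adjusted p = 0.923). The CMA effects differed by 1.18 (SE 0.08, edgeR adjusted p = 3.52e-09), the largest positive difference among the 8 tested genes.

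Ski, which encodes a co-repressor of SMAD complexes, had 72.6, 67.9 and 72.1 CPM in WT T cells with DMSO and 108, 108 and 102 CPM with CMA, a rise of 1.49-fold (log2 fold change 0.58, SE 0.05, edgeR adjusted p = 6.65e-08). Its STING KO values were 73.3, 78.5 and 80.8 CPM with DMSO and 81.2, 82.2 and 91.4 CPM with CMA. The latter groups did not overlap, but the difference did not pass the test (log2 fold change 0.13, 95% interval 0.02 to 0.25, edgeR adjusted p = 0.294). The CMA effects differed by 0.45 (SE 0.08, edgeR adjusted p = 9.64e-05).

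Of the 8 genes not picked for their CMA response, 5 rose and 2 fell in WT T cells with CMA, and Acvr2a did not pass the test. The DMSO and CMA libraries did not overlap for the 7 genes that passed, as for 71.1% of all genes. Over all genes tested, 70.4% passed in this comparison (33.0% higher and 37.4% lower), so a change with CMA in WT T cells was common. The median log2 fold change was 0.30 over the 8 genes and -0.04 over all genes. In STING KO T cells none of the 8 passed with edgeR, against 1.32% of all genes (0.398% higher and 0.920% lower). The STING KO groups did not overlap for 3 of the 8 (Tgfb1, Acvr2a and Ski), as for 23.1% of all genes. Tgfb1 and Ski had an unadjusted p under 0.05, and DESeq2 and limma-voom also called 0 of the 8. For 6 of the 8 the genotypes differed in the CMA effect, positively for Tgfbr2, Smad3, Smad7 and Ski and negatively for Inhba and Tgfb1, where 58.8% of all genes passed (27.2% positive and 31.6% negative). The B-cell marker sum given above was also higher with CMA in WT T cells. The myeloid sum was higher through Cst3, while the median log2 fold change of the tested myeloid markers was -0.41. Of 6 B-cell markers 4 rose with CMA in WT T cells, and of 6 tested myeloid markers 1 rose and 3 fell, while the T-cell markers (1 rose and 4 fell of 10), the CD8 and natural killer markers (1 and 4 of 6), the platelet markers (2 and 0 of 4 tested), the stromal markers (1 and 1 of 3 tested) and the regulatory T-cell markers (0 and 3 of 6) moved as well. In STING KO T cells 0 markers of these 7 lists passed the test. The part of these cells in the changes of the 10 genes was not tested. In bulk RNA, fewer cells of a type and less RNA per cell cannot be told apart. In separate assays of the study, WT but not STINGgt/gt T cells bound Annexin V, a mark of apoptosis, after 16 h with CMA. The part of cell death in the changes of the 10 genes was not tested either.

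**Figure D3:**
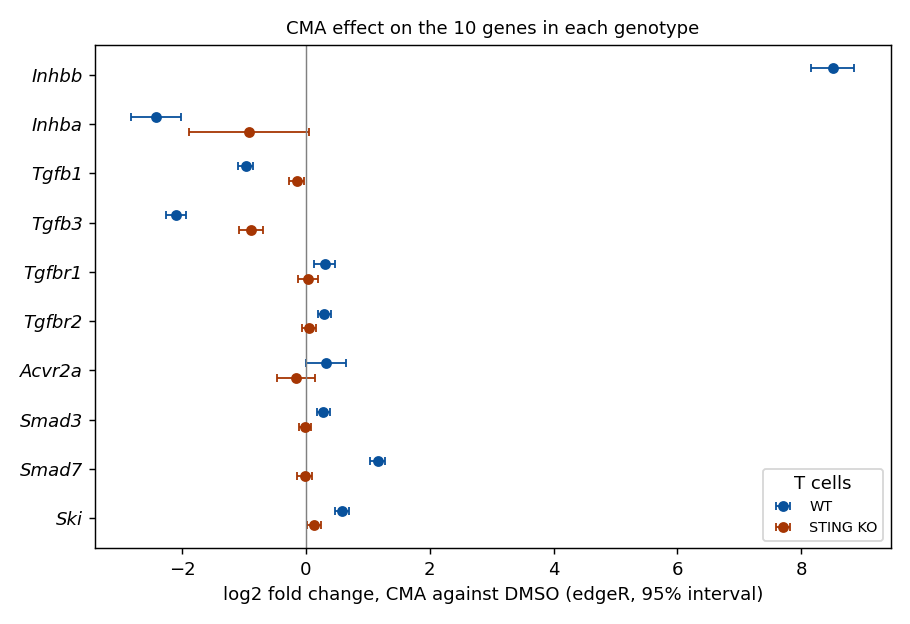
log2 fold change with CMA against DMSO (edgeR) and its 95% interval for the 10 genes in WT (blue) and STING KO T cells (orange), without the STING KO value of Inhbb, which rests on 1 and 3 reads. The WT estimates run from -2.42 for Inhba to 8.51 for Inhbb, and the STING KO estimates of Tgfbr1, Tgfbr2, Smad3 and Smad7 lie between -0.02 and 0.05.

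The genotypes already differed without the agonist. With DMSO, 5 of the 8 genes not picked for their response differed between WT and STING KO T cells, 4 higher and 1 lower in WT, where 42.7% of all genes passed (22.9% higher and 19.8% lower). Inhba was 20.3-fold higher in WT T cells (log2 difference 4.34, SE 0.24, edgeR adjusted p = 4.61e-10). Every WT library was above every STING KO library, and the genotypes did not overlap for 7 of the 8 genes (all but Tgfb1), as for 47.9% of all genes.

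Smad7 (log2 difference 0.53, SE 0.06, edgeR adjusted p = 2.01e-06), Smad3 (0.50, SE 0.05, adjusted p = 3.39e-07) and Tgfbr2 (0.39, SE 0.05, adjusted p = 1.13e-05) were higher in WT T cells by 1.31-fold to 1.44-fold. Tgfbr1 was the gene that was lower in WT T cells (log2 difference -0.61, SE 0.08, edgeR adjusted p = 1.36e-05). Of the picked genes, whose WT libraries with DMSO also entered the choice, Tgfb3 was 6.02-fold higher in WT T cells (log2 difference 2.59, SE 0.08), and Inhbb had 9 reads in WT against 1 in STING KO T cells, too few for a fold difference. Tgfb1 (-0.05, edgeR adjusted p = 0.501), Acvr2a (-0.28, adjusted p = 0.147) and Ski (-0.13, adjusted p = 0.0661) did not pass. Without WT DMSO replicate 3, the count of genes lower in WT rose from 1 to 3, with Acvr2a (-0.45, adjusted p = 0.0354) and Ski (-0.15, adjusted p = 0.0476) added. Without STING KO DMSO replicate 1 or STING KO CMA replicate 3 the count was 2, with Ski added. Ski also passed with library-size scaling (edgeR adjusted p = 0.0324) and DESeq2 (adjusted p = 0.0421), among others.

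The marker lists of other cell types differed in the same comparison. All 6 B-cell markers and all 6 tested myeloid markers were higher in WT than in STING KO T cells with DMSO, with median log2 differences of 1.05 and 2.03. Of the 6 CD8 and natural killer markers, 4 were higher and 1 lower, with summed levels of 74.7 to 79.2 CPM in WT and 53.2 to 61.2 CPM in STING KO T cells. Of the platelet markers, 2 of 4 tested were higher (sums of 121 to 148 against 90.8 to 113 CPM). Nearly all of these sums came from Itgb3, which averaged 130 against 99.2 CPM. Of the stromal markers, 2 of 3 tested were higher (2.56 to 3.62 against 1.01 to 1.16 CPM), with Col3a1 at 0 throughout. Of the 6 regulatory T-cell markers, 2 were higher and 1 lower (2321 to 2526 against 1640 to 1663 CPM). Il2ra (1892 against 1272 CPM) and Ctla4 (468 against 339 CPM) made up most of that sum. Foxp3 did not pass the test (1.45 against 1.31 CPM, edgeR adjusted p = 0.492). The part of these cell types in the genotype differences of Inhba, Tgfb3 and the other genes was not tested. With CMA, 5 of the 8 genes not picked for their response were higher in WT T cells (Inhba, Tgfbr2, Smad3, Smad7 and Ski) and 2 lower (Tgfb1 and Tgfbr1), where 73.5% of all genes passed (37.0% higher and 36.5% lower). These comparisons share libraries with those of the CMA response.

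Per kilobase of exon, the genes could be ranked within each group. In WT T cells with DMSO, Tgfb1 was the most abundant of the 10 at 42.2 ± 2.6 CPM per kilobase (SD, n = 3), followed by Tgfb3 (22.3), Smad3 (17.0), Tgfbr2 (14.5), Ski (12.7), Smad7 (6.56), Tgfbr1 (3.72), Inhba (1.23), Acvr2a (0.359) and Inhbb (0.0215). No neighbours in that order overlapped over the 3 libraries. With CMA the order in WT T cells was Tgfb1 (21.5), Smad3 (20.7), Ski (19.0), Tgfbr2 (17.8), Smad7 (14.6), Inhbb (8.16), Tgfb3 (5.20), Tgfbr1 (4.62), Acvr2a (0.455) and Inhba (0.227). The libraries of Tgfb1 and Smad3 overlapped there, as did those of Ski and Tgfbr2. Inhbb thus went from last to the 6th position and Inhba from the 8th to the last.

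Tgfb1 led in STING KO T cells under both treatments, at 43.7 ± 1.3 CPM per kilobase with DMSO and 39.4 ± 2.6 with CMA. Ski, Smad3, Tgfbr2, Tgfbr1, Smad7, Tgfb3, Acvr2a, Inhba and Inhbb followed in the same order with DMSO and with CMA. Of these neighbours, only Smad3 and Tgfbr2 overlapped, in both groups.

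**Figure D4:**
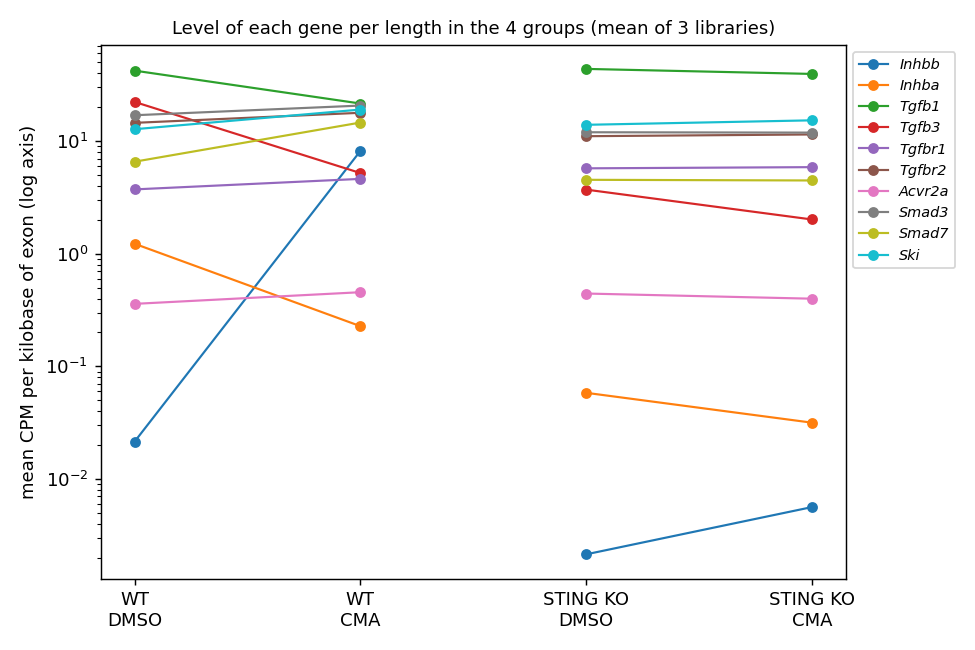
Mean CPM per kilobase of exon (log axis) of the 10 genes in the 4 groups, each point the mean of 3 libraries, with lines joining DMSO and CMA within a genotype. In WT T cells the lines of Inhbb (0.0215 to 8.16) and Inhba (1.23 to 0.227) cross, while the STING KO lines are nearly flat except for the 2 lowest genes and Tgfb3.

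The remaining genes of the pathway were read from lists of 85 distinct genes by textbook membership, of which 65 were tested, 55 of them outside the 10. In WT T cells 25 of the 55 rose and 18 fell with CMA, or 78.2%, beside 70.4% of all genes tested. Tgfb2, Ltbp1 and Ltbp2 passed the filter on low counts only through the WT libraries with CMA, so that their rise was a condition of being tested. Of the other 52 genes 22 rose and 18 fell. With CMA in STING KO T cells, 3 of the 55 fell and none rose, where 1.32% of all genes passed (0.398% higher and 0.920% lower). Among the 3 were Acvrl1 and Id2, the last of these outside the rule for named genes and chosen after its values were seen.

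Of the other ligand genes, Gdf11 and Tgfb2 passed the filter. Gdf11, a ligand that signals through activin receptors, had 17.6, 13.8 and 15.5 CPM with DMSO and 154, 147 and 158 CPM with CMA in WT T cells (log2 fold change 3.29, SE 0.07, edgeR adjusted p = 7.14e-16). The 3 WT libraries with CMA were far above the others, and the STING KO libraries of both treatments lay between 12.5 and 15.7 CPM. Tgfb2, the remaining TGF-β isoform, was chosen after its values were seen, has a mean count below 50 and is described without a test. It had 0, 2 and 4 reads with DMSO and 57, 50 and 38 with CMA in WT T cells, a depth-adjusted ratio of 23.8 (exact 95% interval 10.7 to 65.8, counting error only). In STING KO T cells it had at most 4 reads in any library.

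Of 13 tested genes for ligand processing and traps, 5 rose and 7 fell in WT T cells, where 33.0% of all genes tested rose and 37.4% fell. Among the 5 were Ltbp1 and Ltbp2, which encode latent TGF-β binding proteins and were tested only through the WT libraries with CMA. Itgav, which encodes the integrin αV chain that helps to release latent TGF-β, rose from 114 ± 13 to 246 ± 17 CPM (SD, n = 3; log2 fold change 1.11, edgeR adjusted p = 7.39e-10). Nrros, which encodes an anchor of latent TGF-β, rose from 42.5 ± 1.9 to 58.1 ± 1.5 CPM (0.45, adjusted p = 1.72e-07). Lrrc32, which encodes the related anchor GARP of regulatory T cells and platelets, fell from 16.0 ± 0.7 to 10.6 ± 1.1 CPM (-0.60, adjusted p = 0.000109). In STING KO T cells Lrrc32 was at 15.6 ± 2.6 and 12.3 ± 1.1 CPM (-0.34, edgeR adjusted p = 0.141). The difference of its CMA effects, -0.26, did not pass the test (edgeR adjusted p = 0.148). Thbs1, encoding thrombospondin 1, an activator of latent TGF-β, fell in WT T cells from 1.09 ± 0.12 to 0.522 ± 0.094 CPM (-1.04, adjusted p = 0.000302).

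Of 7 further receptor genes, 1 rose (Acvr2b) and 3 fell in WT T cells, where 33.0% of all genes tested rose and 37.4% fell. Acvrl1, which encodes the type I receptor ALK1, fell from 61.4 ± 6.1 to 18.4 ± 2.5 CPM in WT T cells (log2 fold change -1.74, edgeR adjusted p = 2.02e-11) and from 42.1 ± 2.2 to 32.2 ± 1.1 CPM in STING KO T cells (-0.38, adjusted p = 0.0255). The co-receptor gene Tgfbr3 fell from 75.7 ± 7.5 to 59.8 ± 1.8 CPM in WT T cells (-0.34, adjusted p = 0.00024). Among 6 other SMAD and adaptor genes, 4 rose and 1 fell, and besides Smad4 the co-activator gene Crebbp rose (log2 fold change 0.63, adjusted p = 2.98e-06).

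Of 13 further inhibitor genes, 7 rose and 2 fell in WT T cells, with a median log2 fold change of 0.30. Over all genes tested, 33.0% rose and 37.4% fell (70.4% passed), and the median was -0.04. Bambi, which encodes a pseudoreceptor, rose from 1.41 ± 0.13 to 4.86 ± 0.20 CPM (log2 fold change 1.78, edgeR adjusted p = 4.91e-09). Tgif1, which encodes a co-repressor of SMAD2, rose from 31.1 ± 1.7 to 106 ± 1 CPM (1.77, adjusted p = 9.6e-15). Skil, which encodes the SKI relative SnoN, rose from 64.6 ± 7.3 to 220 ± 2 CPM (1.76, adjusted p = 5.64e-13). In STING KO T cells none of these 3 passed the test (edgeR adjusted p = 0.825, 0.0976 and 0.49), and the CMA effects differed by 1.67, 1.59 and 1.65. Strap (-0.62, adjusted p = 1.95e-09), encoding a receptor-associated inhibitor, and Tgif2 (-0.18, adjusted p = 0.00881), a relative of Tgif1, fell.

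Genes known to be induced or repressed by TGF-β did not move in 1 direction. Of 13 tested outside the 10 genes, 6 rose and 4 fell in WT T cells, with a median log2 fold change of -0.10. Over all genes tested, 33.0% rose and 37.4% fell, with a median of -0.04. Tgif1 and Skil, which are also on the inhibitor list, were the largest rises. Id3, which encodes an inhibitor of E proteins, fell in WT T cells from 22.2 ± 1.3 to 10.4 ± 0.6 CPM (-1.08, adjusted p = 2.35e-10) and did not pass the test in STING KO T cells (0.17, adjusted p = 0.154). In the BMP branch, which uses other receptors and SMADs, 3 of 5 tested genes rose in WT T cells and Bmp7 fell (-1.10, adjusted p = 4.16e-05). Among the 3 were Smad5 (0.47, adjusted p = 7.68e-07) and Bmpr2 (0.40, adjusted p = 0.0275). The log2 fold change of Bmpr2 in STING KO T cells was 0.25 (edgeR adjusted p = 0.506). The difference of its CMA effects, 0.15, did not pass the test (edgeR adjusted p = 0.554).

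**Figure D5:**
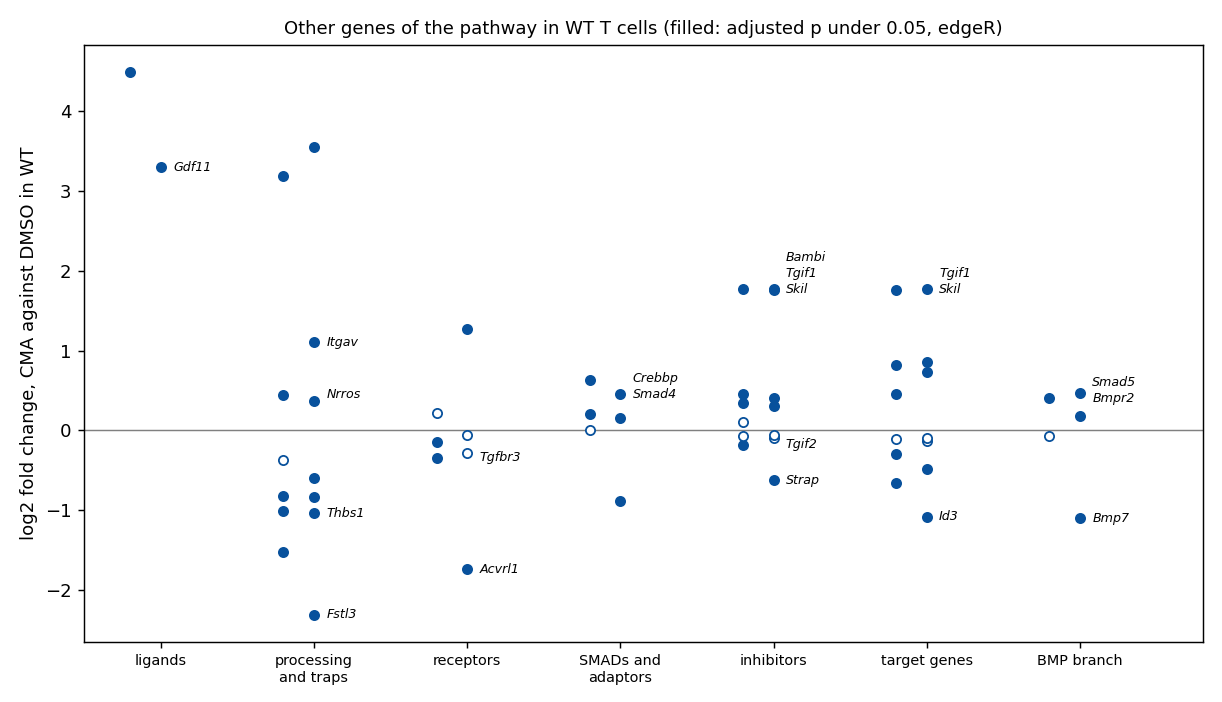
log2 fold change with CMA against DMSO in WT T cells for the tested genes of each pathway list outside the 10 genes, with filled points for an edgeR adjusted p under 0.05 and names beside most of the genes described. The inhibitor genes Bambi, Tgif1 and Skil lie at 1.76 to 1.78, whereas the trap gene Fstl3 lies at -2.31.

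Finally, the genes whose levels were most like those of the picked ligand genes were read as a description over the 12 libraries, which fall into 4 groups, among 11198 genes. For Inhbb these included Tor3a, Pmaip1, Sp140 and Pank2, with Pearson's r of log2 CPM between 0.996 and 0.998. Of these, Pmaip1, which encodes the BH3-only protein Noxa, averaged 22.3 CPM in WT T cells with DMSO and 275 CPM with CMA, against 17.3 and 18.6 CPM in STING KO T cells. For Tgfb3 they were Serpinf1, Sccpdh, Tgm2, Casp6 and Lama5 (r between 0.988 and 0.993). Serpinf1 averaged 68.8 and 16.2 CPM in WT and 11.4 and 7.40 CPM in STING KO T cells with DMSO and CMA.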

How the data were processed

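RNA of splenic CD4+ T cells was sequenced in 12 libraries, prepared with a stranded mRNA kit. The authors deposited, without normalization, a read count for each Ensembl gene, and a table of log2 values for 11921 genes that equals log2 of the count plus 0.5 with 1 offset per library; it served as an alternative. The submitters' processing notes name cutadapt 1.3, STAR 2.4.0f1, HTSeq 0.6.1, RSEM 1.2.16 and GRCm38; the strand setting and annotation release are not given in the sources used here. Alignments that were not unique (27.8% to 30.3% of entries), reads outside genes (4.86% to 7.16%) and ambiguous reads (0.594% to 0.635%) stayed out of library sizes and tests. Gene names came from the deposited table for 11921 IDs and a reference list for 25762, positions from the table, and exon lengths from GENCODE M21.

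Counts were fitted with edgeR 4.0.16 (R 4.3.3; glmQLFit and glmQLFTest, two-sided, filterByExpr by group, TMM, 4 groups in 1 model, no block), with Benjamini-Hochberg adjustment over 13811 genes and a threshold of 0.05. SEs were derived from the fold change and the F statistic. Log2 CPM for the similarity of genes used a prior count of 2 and genes with a mean count of at least 50. The genotype test with DMSO was planned for all 10 genes, but Inhbb and Tgfb3 are described there without a test. Alternatives were library-size scaling, DESeq2 1.42.0, limma-voom (limma 3.58.1), limma on the deposited log2 table, tests without a filter or with 10 counts required per library, fits of the 2 groups alone, replicate blocks, an adjusted p under 0.01, a 2-fold minimum and leaving out each library. Besides the 10 genes, the text names from each pathway list up to 2 rises and 2 falls, the largest in WT T cells with a mean count of at least 50 and no overlap, and direct partners of the 10; some genes that these rules cover are not reported here. Members and lists were chosen with earlier results of these data known. The study names the replicates biological; precision is limited by 3 libraries per group.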

Additional observations from a re-analysis of the deposited data

Results flagged for a closer look

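The CMA effect differed between WT and STING KO T cells, by the interaction term of the edgeR model (adjusted over 13811 genes), for 6 of the 8 genes not picked for their response. The log2 difference (WT minus STING KO) was -1.50 for Inhba (adjusted p = 0.0245), -0.82 for Tgfb1 (adjusted p = 2.51e-07), 0.24 for Tgfbr2 (adjusted p = 0.00791), 0.29 for Smad3 (adjusted p = 0.00123), 1.18 for Smad7 (adjusted p = 3.52e-09) and 0.45 for Ski (adjusted p = 9.64e-05). Over all genes tested, 58.8% passed in this comparison.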

How the results depend on the processing

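The directions of all calls named for the 10 genes held under every alternative that gave a value. Counts of genes are over the 8 genes not picked for their response. Of these, 1 gene was lower in WT T cells with DMSO with edgeR and TMM. The number was 2, with Ski added, under library-size scaling, DESeq2, no filter, and at least 10 counts in every library. The last of these left out Inhba, which gave 1 in place of 2 genes lower with CMA in WT T cells and 1 in place of 2 genes with a negative difference of the CMA effects. At an adjusted p under 0.01 the latter was also 1. With a 2-fold minimum, 1 gene rose and 1 fell with CMA in WT T cells (Smad7 and Inhba), 1 difference of the CMA effects was positive and 1 negative, 1 gene was higher and 0 lower in WT T cells with DMSO, 2 were higher and 0 lower with CMA, and 6 of 52 pathway genes rose and 7 fell in WT T cells, in place of 22 and 18. These 52 leave out the 10 genes and the 3 that passed the filter only through WT T cells with CMA. Leaving out each library in turn gave 1 to 2 negative differences of the CMA effects, 1 to 3 genes lower in WT T cells with DMSO and ranges within 1.5 times the value for the other counts.

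Signs that turned belong to values near 0 in STING KO T cells. The log2 fold change of Tgfbr1 with CMA (0.04) ranged from -0.0244 to 0.0865 over the libraries left out, and that of Smad3 (-0.01) from -0.0526 to 0.0165; with a replicate block by library name it was 0.0222. The labels do not say what the replicate numbers share, and the fit was left without a block, since deviations of same-numbered libraries did not all correlate by more than 0.1: the values were 0.00195, 0.104 and 0.132 in WT and 0.0634, 0.0597 and 0.0585 in STING KO T cells. Pairing was not excluded, since 4 of 6 WT and 6 of 6 STING KO libraries correlated best with their own number, and library names share a first digit in 3 of 3 WT and 2 of 3 STING KO pairs. With the replicate block, 5 of the 8 genes rose and 2 fell in WT T cells, 0 changed in STING KO T cells, and the CMA effects differed for 5 upwards and 2 downwards, with Tgfbr1 added. The genotype comparisons have no paired analysis, since the numbers do not run across genotypes. Depth limits Inhbb, Inhba and Acvr2a most, with at most 4 reads of Inhbb per library outside WT T cells with CMA, 7 to 20 reads of Inhba in STING KO T cells and 52 to 104 reads of Acvr2a throughout.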
